A study of Mus musculus with 2 samples.

Results

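Retnla-expressing macrophages are the few tumour macrophages that hold many transcripts of Retnla, the gene of resistin-like molecule alpha, a small secreted protein. Cells were taken where the transcripts of the C1q genes C1qa, C1qb and C1qc made up at least 0.2% of a cell's transcripts, where at least 4 Retnla transcripts were counted, where Hmox1 made up under 0.2%, and where no Cd3d, Cd3e or Cd3g transcript was found. Transcripts were counted by unique molecular identifiers (UMIs). These limits chose 68 of 20602 cells that passed the quality filter, 10 of 11617 in the library titled Blood and 58 of 8985 in the library titled Control. The study profiled cells of subcutaneous fibrosarcomas, connective tissue tumours of syngeneic cells, in wild type C57BL/6 mice by droplet-based single-cell RNA sequencing of transcript ends, and compared tumours given an injection of the mouse's own erythrocytes with tumours given saline. Each group was 1 library, and the number of mice in each is not given in the sources used here. The labels go against each other: the library titled Blood carries saline (PBS) injection as its treatment, and the library titled Control carries erythrocyte injection. Libraries are therefore named by title, and the direction of no difference can be tied to erythrocytes. Tumours of both groups were digested with collagenase B and DNase I and freed of erythrocytes by lysis. With 1 library per group no test between libraries was possible, and every interval below is an exact 95% interval that covers counting error only.

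In mice, Retnla is induced in macrophages by the type-2 cytokines interleukin-4 and interleukin-13, which act through the receptor chain Il4ra and the transcription factor STAT6. It is widely used as a marker of this alternative activation, together with the mannose receptor Mrc1 and the lectins Clec10a and Mgl2. Macrophages of a tumour come partly from blood monocytes, which bring in the chemokine receptor Ccr2, and partly from macrophages that resided in the tissue, such as those along vessels that carry the hyaluronan receptor Lyve1.

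Retnla (ENSMUSG00000061100) lies on mouse chromosome 16, GRCm38, chr16:48842551-48844461 on the plus strand, between its relatives Retnlb, chr16:48816856-48818892, and Retnlg, chr16:48872621-48874496, both on the plus strand. The genes Retnlb and Retnlg and the fourth family member, Retn on chromosome 8, had 0 UMIs in the Retnla-expressing macrophages of both libraries. With 84715 UMIs in these cells in the library titled Blood and 859861 in the library titled Control, a count of 0 allows levels of up to 35.4 and 3.49 CPM, the UMIs of a gene per 1000000 UMIs of the summed cells. The upstream sequences of Retnla and Retnlg are shown because Retnla is the gene that selects the cells and Retnlg is the close neighbour that they lacked. They come from RefSeq (GRCm38.p6), plus strand, chr16:48842359-48842550 for Retnla, which ends before the annotated gene, and chr16:48872358-48872607 for Retnlg. Capitals mark TTCNNNNGAA, a form that STAT6 is known to bind and that reads alike on both strands, and TTGCNNAA, a form of C/EBP factors, searched on both strands.
Retnla: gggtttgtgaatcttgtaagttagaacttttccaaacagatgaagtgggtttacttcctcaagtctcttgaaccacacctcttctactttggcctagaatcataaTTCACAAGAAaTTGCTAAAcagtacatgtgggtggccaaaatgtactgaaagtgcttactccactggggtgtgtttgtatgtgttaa
Retnlg: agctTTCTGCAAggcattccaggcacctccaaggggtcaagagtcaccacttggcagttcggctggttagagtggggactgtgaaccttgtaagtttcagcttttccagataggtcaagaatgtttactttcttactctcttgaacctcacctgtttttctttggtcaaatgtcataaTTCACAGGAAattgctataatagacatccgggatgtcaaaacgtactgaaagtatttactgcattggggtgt
In Retnla the match TTCACAAGAA was followed after a single base by TTGCTAAA. In Retnlg the match TTCACAGGAA had no C/EBP form beside it, and the other match, TTCTGCAA, lay at the far end of the window. Over 175 aligned bases the windows were identical at 138, or 78.9%. Of 27025 RefSeq promoters, 5.86% held the first form and 9.55% the second in the 250 bases before the start, and 7 (0.0259%) held both within 5 bases of each other. The Retnla window shown has 192 bases. Of 9 genes named below as higher in these cells, 0 held the first form and 3 the second. A match describes letters only.

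Some barcodes were found in both libraries and bear on these cells. The libraries shared 349 barcodes, and in the median pair the copy with fewer UMIs held 1.95% of the UMIs of the other. Of the 10 Retnla-expressing macrophages titled Blood, 2 had such barcodes. They held 731 UMIs with 23 of Retnla and 704 UMIs with 16 of Retnla, against 36429 UMIs with 778 of Retnla and 33568 UMIs with 662 of Retnla in the cells of the same barcode titled Control. The cell of 36429 UMIs was itself a Retnla-expressing macrophage. The cell of 33568 UMIs was not, as C1q transcripts made up 0.107% of its UMIs, below the limit on C1q. Its copy of 704 UMIs titled Blood passed that limit at 0.426%. Of the 58 titled Control, 4 had shared barcodes, with 27240 to 38469 UMIs. Results are given with these cells and, where it bears on them, without them, as an alternative chosen after seeing the data.

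Retnla-expressing macrophages were rare in both libraries and rarer in the library titled Blood. They were 10 of 4615 C1q macrophages within the same limits on C1q, Hmox1 and Cd3, or 0.217% (0.104% to 0.398%), in the library titled Blood and 58 of 4583, or 1.27% (0.962% to 1.63%), in the library titled Control. The ratio of these shares was 0.171 (0.0780 to 0.338), and 0.147 without shared barcodes, where 8 and 54 cells remained. Of all cells that passed the filter they were 0.0861% (0.0413% to 0.158%) and 0.646% (0.491% to 0.834%). With every cell thinned to 5000 UMIs and shallower cells left out, 4657 titled Blood and 2201 titled Control, the shares of C1q macrophages were 0.173% (7 cells) and 0.953% (40 cells), a ratio of 0.182. This order cannot be attributed to a treatment, as there was 1 library per group and the labels conflict.

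The Retnla count per cell, which chose the cells, ran over a wide range. The 10 cells titled Blood held 499, 100, 23, 19, 16, 13, 13, 12, 8 and 4 Retnla UMIs, and those titled Control 4 to 1386 with a median of 47. A single cell gave 70.6% of the 707 Retnla UMIs of the group titled Blood, and the highest cell titled Control 16.2% of its 8571. As a share of a cell's own UMIs the medians were 0.533% and 0.578%, with highest values of 3.15% and 6.47%. The cells titled Blood with shared barcodes were at 3.15% and 2.27%, and without shared barcodes the medians were 0.173% over 8 cells titled Blood and 0.592% over 54 titled Control, with overlapping ranges of 0.0535% to 2.81% and 0.0138% to 6.47%. Just inside the limit, 1 cell titled Blood and 5 titled Control had 4 or 5 Retnla UMIs. Just outside it, 6 and 20 had 2 or 3.

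**Figure D1:**
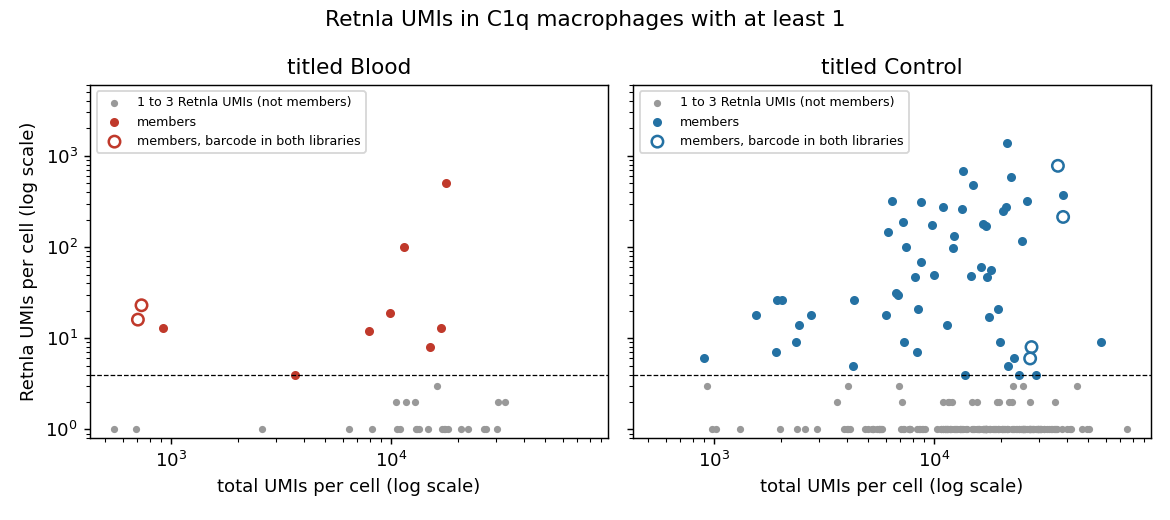
Retnla UMIs per cell (log scale) against total UMIs per cell (log scale) for C1q macrophages with at least 1 Retnla UMI, titled Blood on the left and titled Control on the right. Grey points below the dashed limit of 4 are cells with 1 to 3 UMIs, and open circles are barcodes found in both libraries, of which the 2 titled Blood sit at 704 and 731 UMIs.

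The level of free RNA was read from T and NK cells and neutrophils, which should lack the gene. Other C1q macrophages are given beside them and may express it. Over the other C1q macrophages, which the limit holds to at most 3 Retnla UMIs each, Retnla was at 0.478 CPM (0.329 to 0.671) in the library titled Blood and 2.76 CPM (2.39 to 3.18) in the library titled Control. T and NK cells held 0.409 CPM (0.111 to 1.05) titled Blood and 2.98 CPM (1.94 to 4.36) titled Control. These are averages, and single cells below the limit stood above them, such as 1 titled Control with 3 Retnla UMIs among 922. A Retnla UMI was found in 0.565% and 3.80% of the other C1q macrophages (median 14109 and 14616 UMIs per cell), in 0.181% and 1.87% of T and NK cells (5100 and 5345 UMIs) and in 0.0959% and 0 of 73 neutrophils (1852 and 2055 UMIs). None of 1661 and 1339 T and NK cells reached 4 UMIs, which allows shares of up to 0.181% and 0.224%. The lower share titled Blood held at every limit on Retnla UMIs that was run: at 32 or more, 2 cells titled Blood (0.0433%, 0.00525% to 0.156%) stood against 30 titled Control (0.655%, 0.442% to 0.933%).

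**Figure D2:**
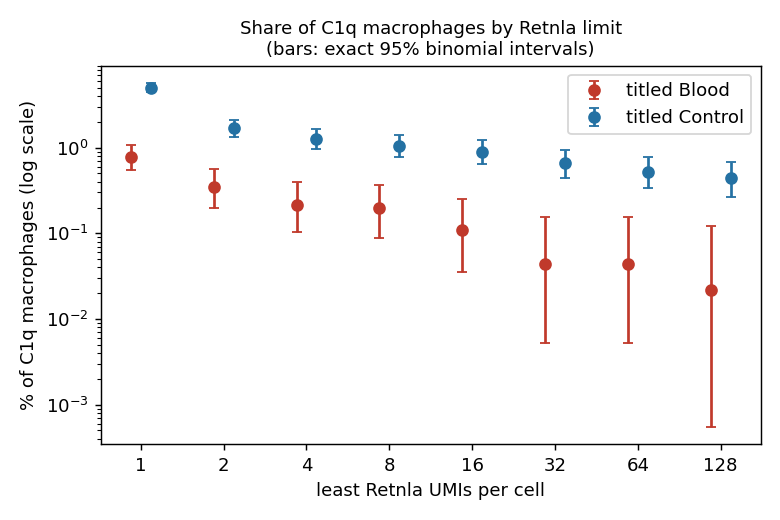
Share of C1q macrophages (log scale, %) with at least the number of Retnla UMIs on the x axis, titled Blood and titled Control, with exact binomial intervals. The points titled Blood lie below those titled Control at every limit, from 0.780% against 5.02% at 1 UMI to 0.0433% against 0.655% at 32.

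The cells had the macrophage genes that their name asks for, but not all of the marker set. The macrophage receptor genes Adgre1 and Csf1r stood at 271 and 413 CPM in Retnla-expressing cells against 276 and 575 CPM in the other C1q macrophages of the library titled Blood, and at 262 and 514 CPM against 258 and 550 CPM in the library titled Control. Mrc1, the mannose receptor, was at 1877 CPM (1596 to 2192) against 672 CPM in the library titled Blood, which is 2.79-fold (2.37 to 3.26), and at 1332 CPM (1256 to 1411) against 505 CPM in the library titled Control, which is 2.64-fold (2.48 to 2.79). It was found in 8 of 10 and 56 of 58 of the cells. Pf4, the chemokine platelet factor 4, did not set the cells apart in the library titled Control, at 1711 CPM against 1560 CPM, a ratio of 1.10 (1.04 to 1.15). In the library titled Blood it was at 7118 CPM against 2737 CPM, but 83.9% of its 603 UMIs came from a single cell, and without that cell it was at 1391 CPM. C1qa, which the rule used, was at 2892 and 4226 CPM, against 4814 and 5035 CPM in the other C1q macrophages. The dendritic cell genes Flt3 and Zbtb46 had 0 UMIs titled Blood and 1 and 3 UMIs titled Control, and Xcr1 and Clec9a had 0 in both. The 12 genes of the dendritic cell list summed to 283 CPM against 47.8 CPM titled Blood and 259 CPM against 72.6 CPM titled Control. The genes abundant enough to be compared were 2, the lectin gene Clec4b1, which was higher in both libraries, and the transcription factor gene Batf3, which was higher titled Blood and not called titled Control, at 70.8 CPM against 24.4 CPM titled Blood and 66.3 CPM against 36.7 CPM titled Control.

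Genes other than those of the rule were then compared between Retnla-expressing and other C1q macrophages within each library, on summed UMIs. Genes with at least 50 CPM in either class and at least 30 UMIs over both were compared, and a gene was called higher or lower past a 2-fold difference in CPM plus 5. Of 3417 genes 508 (14.9%) were higher and 461 (13.5%) lower in the library titled Blood, and of 3234 genes 167 (5.16%) were higher and 91 (2.81%) lower in the library titled Control. At 50 CPM the cells titled Blood hold 4.24 UMIs of a gene in all and those titled Control 43.0, so single ratios titled Blood rest on few UMIs. In both libraries 105 genes of 2972 (3.53%) were higher and 71 (2.39%) lower, and 0 were called in opposite directions. Without shared barcodes these were 105 and 69. The median log2 ratio over all genes compared was 0.09 in the library titled Blood and 0.06 in the library titled Control.

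The 12 genes of highest ratio in both libraries covered receptors, secreted proteins and enzymes. Ednrb, the endothelin receptor type B, was at 342 CPM (229 to 492) against 4.08 CPM in the library titled Blood and at 172 CPM (146 to 202) against 4.22 CPM in the library titled Control, log2 ratios of 5.26 and 4.26. Titled Blood, 1 cell held 18 Ednrb UMIs and another 8, and no other cell held more than 2. Ear2, a ribonuclease of the eosinophil-associated family, was at 295 CPM against 2.26 CPM and at 154 CPM against 4.58 CPM, log2 5.37 and 4.05, but 96.0% of its 25 UMIs titled Blood came from 1 cell. The galactose-binding lectin gene Clec10a, a marker of alternative activation, had 307 CPM (200.5 to 449.7) against 23.1 CPM in the library titled Blood and 393 CPM (352 to 437) against 24.9 CPM in the library titled Control, found in 6 of 10 and 43 of 58 cells. Of the other macrophages 2.50% titled Blood and 1.92% titled Control held an Ednrb UMI, and 21.0% and 22.1% a Clec10a UMI.

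Wfdc17, a small secreted protein of activated macrophages, and Ccl6, a chemokine, were the most widespread of the set. Wfdc17 was at 3105 CPM against 273 CPM in the library titled Blood and at 2534 CPM against 263 CPM in the library titled Control, in 9 of 10 and 55 of 58 cells, log2 3.48 and 3.24. Without shared barcodes the Wfdc17 ratio titled Control was log2 2.70. Ccl6 was at 4297 CPM against 456 CPM and at 4268 CPM against 538 CPM, in 9 of 10 and 57 of 58 cells, log2 3.22 and 2.98. Lyz1, a lysozyme gene, was at 82.6 CPM (33.2 to 170.2), 26.7-fold the other macrophages, and at 499 CPM (453 to 548), 59.0-fold, and Lpl, the lipoprotein lipase, at 319 CPM against 25.5 CPM and 436 CPM against 22.5 CPM. The Lyz1 UMIs titled Control lay largely in few cells, with 121 and 111 in the highest, and most cells had 0. The Lpl UMIs titled Blood came mainly from a cell with 14 and a cell with 12. Pdlim1, Tppp3, Clec4b1, Ifitm6 and the haemoglobin-haptoglobin receptor Cd163 completed the 12, with log2 ratios of up to 4.22 titled Blood, in Clec4b1, and up to 3.85 titled Control, in Cd163. The 7 Cd163 UMIs titled Blood came from 1 cell, while 15 of 58 cells titled Control held it. The Clec4b1 UMIs titled Blood came from a cell with 8 and a cell with 4. Lyz1 and Lyz2, Ear2 and its family, Clec10a and Mgl2, and the Cd209 genes are close copies whose reads can be shared or lost, so their single values are uncertain.

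The 12 genes of lowest ratio were led by Ifitm1, a membrane protein of the interferon-induced family, at 47.2 CPM (12.9 to 121) against 328 CPM in the library titled Blood and 24.4 CPM (15.1 to 37.3) against 306 CPM in the library titled Control. Cxcl9, a chemokine that draws T cells, was at 47.2 CPM against 770 CPM and at 142 CPM against 742 CPM, and 80.3% of its 122 UMIs titled Control came from 1 cell. Cxcl16, a membrane-bound chemokine, was at 189 CPM (108 to 307) against 712 CPM and 199 CPM (170 to 231) against 662 CPM, and Acp5, the tartrate-resistant phosphatase of osteoclasts, at 82.6 CPM against 293 CPM and 67.5 CPM against 319 CPM. Il1r2, Zmynd15 and Abi3 had 0 UMIs in the 10 cells titled Blood, against 50.4, 119 and 73.0 CPM in the other macrophages of that library. Against the limit of 3 counts, Zmynd15 was thus at least 3.36-fold lower, Abi3 at least 2.06-fold, and Il1r2 at least 1.42-fold, which is short of 2-fold. These limits cover the counting of UMIs only and not which 10 cells were caught. Spint1, Ggta1, Gpr183, Pmepa1 and the TGF-beta receptor Tgfbr1 were lower too, with log2 ratios of -2.85 and -1.70 for Pmepa1 and -1.79 and -1.73 for Gpr183. The titled Blood counts behind them were 1 to 6 UMIs.

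**Figure D3:**
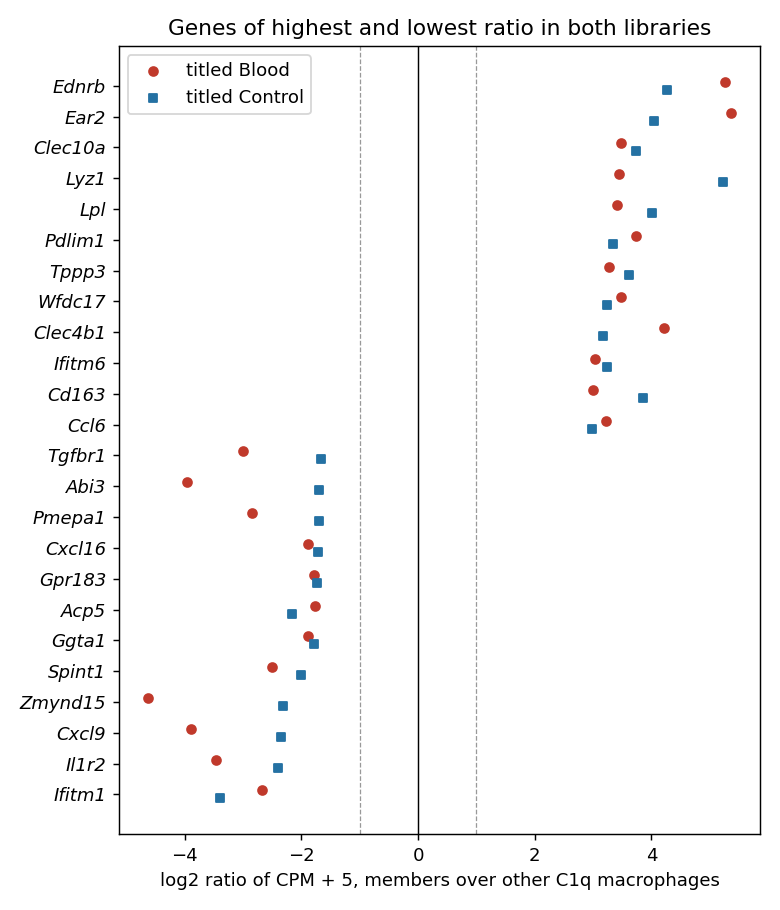
Log2 ratio of CPM plus 5 of Retnla-expressing over other C1q macrophages for the 12 genes of highest and 12 of lowest ratio in both libraries, circles titled Blood and squares titled Control, dashed lines at 2-fold. The higher genes lie between 2.98 (Ccl6) and 5.37 (Ear2), and the lower ones with a UMI in both libraries between -1.67 (Tgfbr1) and -3.89 (Cxcl9). The points titled Blood of Il1r2, Zmynd15 and Abi3 stand for 0 UMIs and depend on the 5 added to the CPM.

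Genes of alternative activation were higher in part. Of 12 genes of this list compared in the library titled Blood 7 were higher and 2 lower, against 14.9% and 13.5% of all genes, with a median log2 ratio of 1.45. Of 11 in the library titled Control 7 were higher and 1 lower, against 5.16% and 2.81%, with a median of 1.04. Besides Mrc1 and Clec10a, the lectin Mgl2 was at 449 CPM (317 to 616) against 135 CPM in the library titled Blood and 452 CPM (409 to 500) against 140 CPM in the library titled Control. The chemokine Ccl24, which draws eosinophils, was at 366 CPM (249 to 519) against 120 CPM and 230 CPM (199 to 265) against 66.8 CPM, and the transcription factor Klf4 at 1003 CPM against 316 CPM and 640 CPM against 309 CPM. Other genes of the list were lower, level or near 0. Arg1, the arginase of this programme, was at 826 CPM against 1865 CPM and 837 CPM against 1051 CPM, the transglutaminase Tgm2 at 23.6 CPM against 346 CPM and 152 CPM against 325 CPM, and the chitinase-like Chil3 had 6 UMIs, 5 of them in 1 cell, titled Blood and 2 UMIs titled Control. The receptor chain Il4ra was at 260 CPM against 218 CPM and 179 CPM against 189 CPM, and Stat6 at 59.0 CPM against 59.4 CPM and 73.3 CPM against 58.7 CPM. The cytokines Il4, Il5 and Il13 had 0 UMIs in the Retnla-expressing macrophages.

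The list of perivascular resident macrophages had the highest medians among lists with at least 5 genes compared. Of 13 of its genes compared in the library titled Blood 11 were higher and 0 lower, median log2 2.13, against 14.9% of all genes higher. Of 18 in the library titled Control 15 were higher and 0 lower, median 2.38, against 5.16%. Titled Blood, 1 cell held 1261 UMIs of the list, at 84291 CPM, against a median of 11772 CPM per cell. F13a1, the coagulation factor XIII A chain, was at 814 CPM (634 to 1031) against 116 CPM and 772 CPM (715 to 833) against 90.0 CPM, and Cbr2, a carbonyl reductase, at 519 CPM against 47.0 CPM and 414 CPM against 59.6 CPM. Gas6, the ligand of the efferocytosis receptors Axl and Mertk, was at 543 CPM against 73.5 CPM and 415 CPM against 72.3 CPM. Selenop, a selenium carrier, was at 2219 CPM against 504 CPM and 1435 CPM against 529 CPM. Titled Blood, the cells of 14960 and 7916 UMIs held 18 and 19 Cbr2 UMIs and 72 and 59 of Selenop. No other cell there held more than 4 of Cbr2 or 19 of Selenop. Ccl8, a chemokine, was at 8841 CPM against 1037 CPM and 2527 CPM against 572 CPM, with 72.0% of its 749 UMIs titled Blood in 1 cell. Lyve1 was at 0 UMIs in the library titled Blood, against 0.232 CPM in the other macrophages there, and at 291 CPM (256 to 329) against 5.37 CPM in the library titled Control. The lectin genes Cd209f and Cd209g had 2 UMIs each titled Blood, too few to be compared, of which 0 and 1 remained without shared barcodes, and were at 382 CPM against 1.76 CPM and 166 CPM against 0.642 CPM titled Control.

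Genes of monocyte-derived macrophages were higher in part. Of 12 compared in the library titled Blood 9 were higher and 2 lower, against 14.9% and 13.5% of all genes, median log2 1.67, and of 13 in the library titled Control 7 were higher and 1 lower, against 5.16% and 2.81%, median 1.19. Ccr2, the monocyte chemokine receptor, was at 1015 CPM (812 to 1254) against 274 CPM in the library titled Blood and 487 CPM (442 to 536) against 310 CPM in the library titled Control. Plac8 was at 578 CPM against 78.0 CPM and 349 CPM against 149 CPM, and Fn1, fibronectin, at 1629 CPM against 714 CPM and 1315 CPM against 449 CPM. Ms4a4c was lower in both, at 23.6 CPM against 117 CPM and 123 CPM against 265 CPM. Of the MHC class II genes 2 of 10 were higher and 1 lower titled Blood (median 0.72), near the 14.9% and 13.5% of all genes, and 0 of 9 were called titled Control (median -0.18), where H2-Ab1 was at 3458 CPM against 3763 CPM.

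Lipid-associated and inflammatory genes were mixed. Of 13 lipid-associated genes compared, 4 were higher and 3 lower titled Blood, and 1 was higher and 4 lower titled Control, with medians of 0.24 and 0.22. Of all genes 14.9% were higher and 13.5% lower titled Blood, and 5.16% and 2.81% titled Control. Lpl was the gene higher in both, while Apoe, the lipid carrier of tumour macrophages, was at 4698 CPM (4248 to 5183) against 11988 CPM and 5914 CPM (5752 to 6079) against 12541 CPM, and Cd9 at 59.0 CPM against 164 CPM and 51.2 CPM against 143 CPM. Of the inflammatory cytokines and chemokines 3 of 15 were higher and 8 lower titled Blood (median -1.20), and 2 of 13 were higher and 4 lower titled Control (median -0.31). Il1b was at 319 CPM against 736 CPM and 210 CPM (181 to 243) against 865 CPM, while the monocyte chemokine Ccl2 was at 1452 CPM against 563 CPM and 1306 CPM against 621 CPM.

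Matrix genes were mixed. Of 15 compared titled Blood 4 were higher and 9 lower (median -1.26), and of 16 titled Control 5 were higher and 5 lower (median -0.19). The elastase Mmp12 was at 23.6 CPM against 358 CPM and 50.01 CPM against 164 CPM, and the membrane protease Mmp14 at 59.0 CPM against 295 CPM and 74.4 CPM against 216 CPM. The protease inhibitor Timp2 was at 968 CPM (770 to 1201) against 318 CPM and 737 CPM (681 to 797) against 267 CPM, and the growth factor Igf1 at 153 CPM against 15.8 CPM and 83.7 CPM against 12.7 CPM. Of the macrophage identity list 3 of 14 were higher and 2 lower titled Blood, near the 14.9% and 13.5% of all genes, and 0 were higher and 2 lower titled Control, where 5.16% and 2.81% of all genes were. Cx3cr1, the fractalkine receptor, was lower in both, at 23.6 CPM against 319 CPM and 154 CPM against 381 CPM. Of the complement list 1 of 7 was higher and 2 lower titled Blood (median -0.16), and 2 of 8 were higher and 2 lower titled Control (median 0.17). These are few genes beside the shares of all genes given above. C4b was higher in both, at 70.8 CPM against 5.71 CPM, on few UMIs titled Blood, and 191 CPM against 13.8 CPM.

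The iron and haem, hypoxia and glycolysis, lysosome and scavenger receptor lists had medians between -0.50 and 0.41. Of 8 iron and haem genes 2 were higher and 1 lower titled Blood, and 1 was higher and 0 lower titled Control, few genes beside shares of 14.9% and 13.5% of all genes titled Blood and 5.16% and 2.81% titled Control. Of 15 hypoxia and glycolysis genes 0 were higher and 3 lower titled Blood, and 0 were called titled Control. Among immediate early genes, which digestion at 37 °C can raise, 7 of 17 with the heat shock genes were higher and 1 lower titled Blood (median 0.89) and 1 was higher titled Control (median 0.57). That gene, Egr1, was at 1062 CPM against 140 CPM and 479 CPM against 103 CPM. The part of digestion in these values was not tested.

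**Figure D4:**
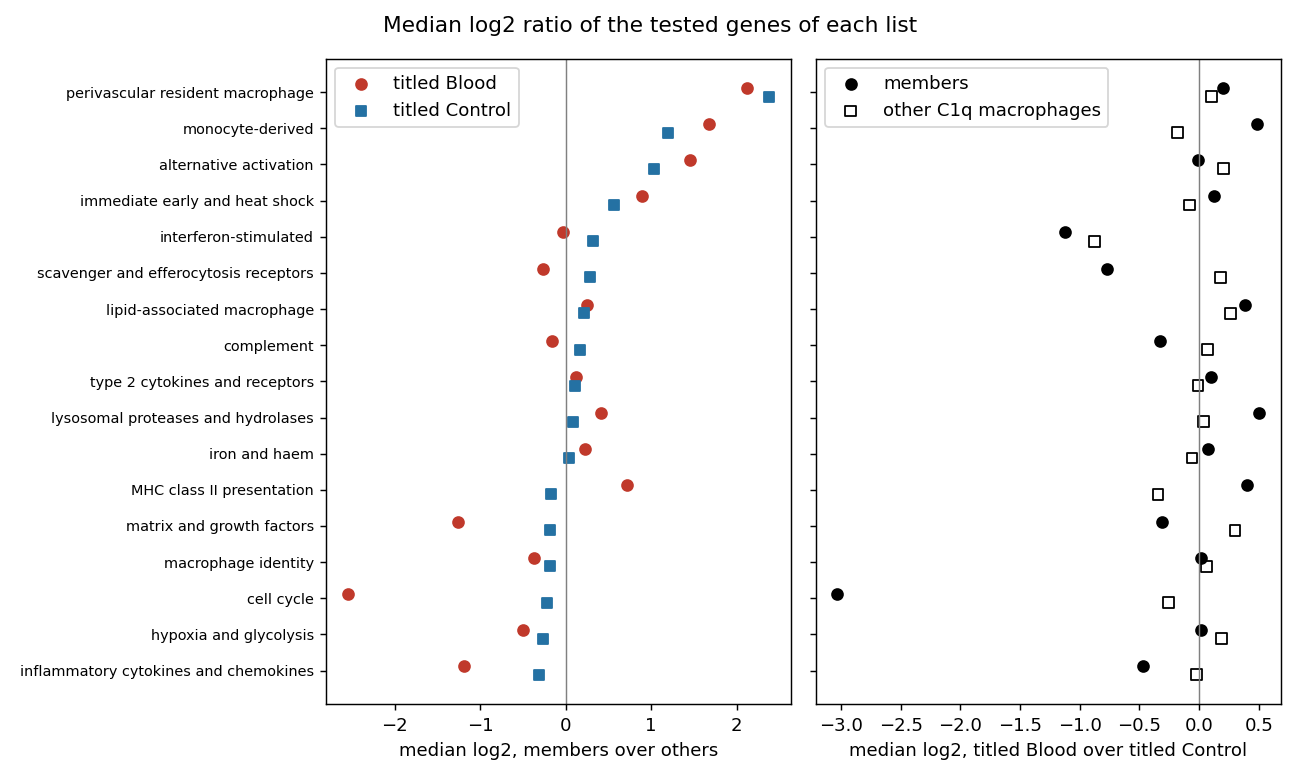
Median log2 ratio over the genes compared of each list. On the left, Retnla-expressing over other C1q macrophages, circles titled Blood and squares titled Control, with the perivascular list at 2.13 and 2.38. On the right, titled Blood over titled Control in Retnla-expressing macrophages (filled) and in other C1q macrophages (open), with the cell cycle list at -3.03 and -0.25 and the interferon-stimulated list at -1.12 and -0.88.

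Clustered on their own, without the genes of the rule, the 68 cells fell into 3 clusters. As the clusters were made from these genes, their levels describe them and are no test. Cluster 1 held 37 cells, 6 titled Blood and 31 titled Control, and was led by the adhesive protein gene Thbs1, at 587 CPM against at most 55.1 CPM in the others, and by Adam8, Clec4b1, Mmp19 and Vegfa. It had Fn1 at 2079 CPM, H2-Ab1 at 5005 CPM and Ccr2 at 686 CPM. Cluster 2 held 24 cells, 4 titled Blood and 20 titled Control, and was led by Cd209f, at 1209 CPM against at most 2.14 CPM, Cd209g, Cd209d, Lyve1 and Cd163. It had Fn1 at 73.5 CPM, H2-Ab1 at 1922 CPM and Ccr2 at 220.5 CPM, and higher levels of Wfdc17 (6684 against 1064 CPM in cluster 1), Mrc1 (2267 against 1021 CPM), Clec10a (988 against 156 CPM) and Ednrb (514 against 53.4 CPM). Cluster 3 held 7 cells, all titled Control, led by Ube2c and the proliferation genes Mki67 and Top2a, with a median of 23066 UMIs per cell, against 11442 in cluster 1 and 9298 in cluster 2.

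Clusters 1 and 2 held Retnla at similar levels. Its share of a cell's UMIs had a median of 0.603% in cluster 1 and 0.664% in cluster 2, with 4 to 677 and 4 to 778 UMIs per cell, and 0.0960% in cluster 3, whose highest cell held 1386. Genes higher than in other macrophages did not go together: Ear2 and Lyz1 were at 216 and 617 CPM in cluster 1 and at 25.7 and 88.2 CPM in cluster 2, while Lyve1 was at 23.5 and 867 CPM. In cluster 3 Ear2, Lyz1 and Lyve1 were at 240, 602 and 14.7 CPM. Ear2 and Lyz1 were each found in 14 of the 37 cells of cluster 1. Clusters 1 and 2 took 60% (26.2% to 87.8%) and 40% (12.2% to 73.8%) of the cells titled Blood and 53.4% (39.9% to 66.7%) and 34.5% (22.5% to 48.1%) of those titled Control, within each other's intervals. In cluster 2 Lyve1 was at 0 UMIs in the 4 cells titled Blood, against 953 CPM in the 20 titled Control. Those 4 cells held 731, 913, 7916 and 14960 UMIs in all, and the first of them had a shared barcode.

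**Figure D5:**
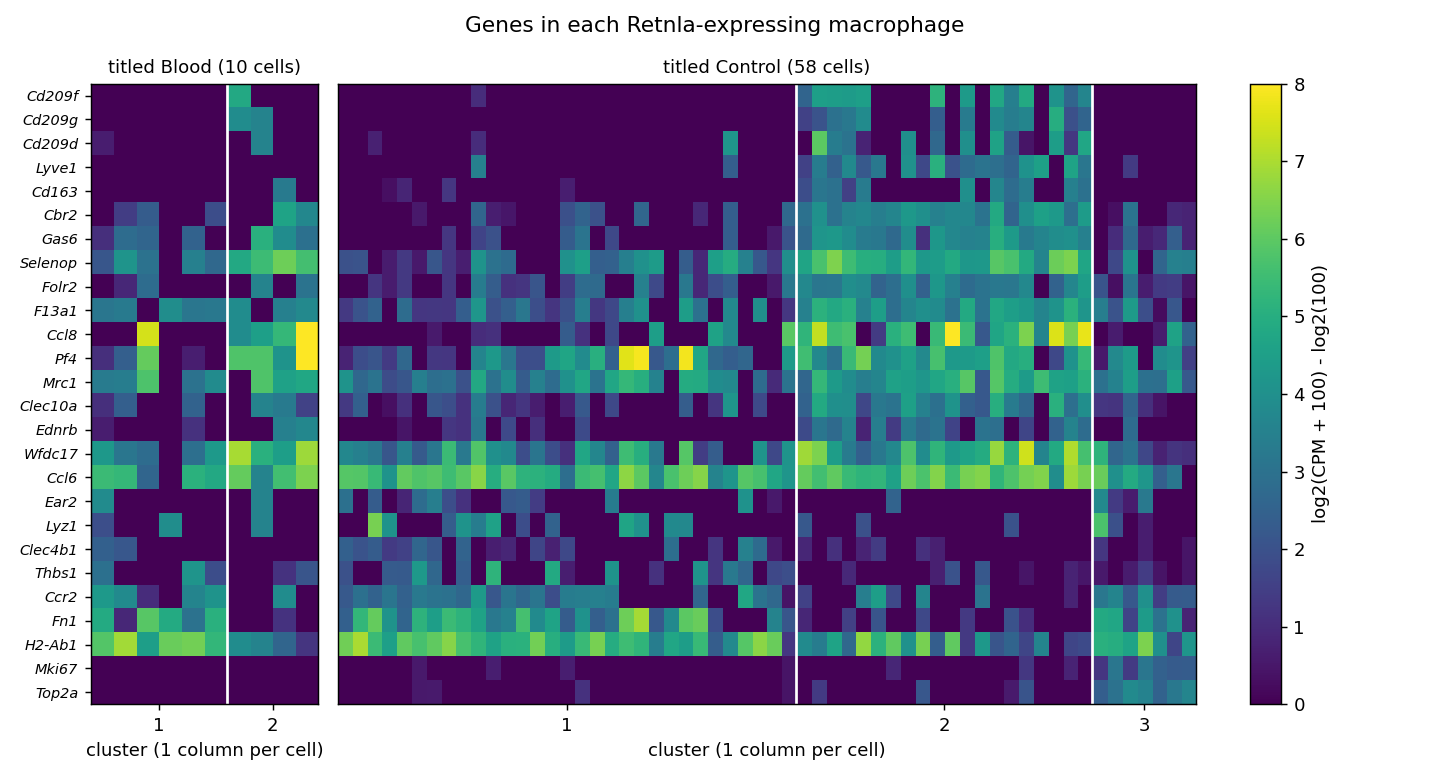
Level of 26 genes (rows) in each Retnla-expressing macrophage (columns), titled Blood on the left and titled Control on the right, on a log2 scale of CPM plus 100 above that of 0 CPM, with colours capped at 8. White lines part the clusters. In the cluster led by Cd209f, Lyve1 and Cbr2 stand high and Fn1 low titled Control, while Lyve1 is at 0 in the 4 cells titled Blood. The 7 cells of the third cluster hold Mki67 and Top2a.

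The serous cavity macrophage, another mouse macrophage known for Retnla, was looked for by its list. Its defining factor Gata6 had 0 UMIs in the Retnla-expressing macrophages of both libraries, as had Prg4 and Ltbp1. Cd226 had 4 UMIs in 1 cell titled Blood and 31 UMIs in 15 cells titled Control, at 47.2 CPM (12.9 to 121) and 36.1 CPM (24.5 to 51.2), against 0.290 and 0.614 CPM in other macrophages. Timd4 had 0 and 14 UMIs, and Vsig4 0 and 69 UMIs, all 69 from 2 cells of cluster 2. Of 15 genes of the list 1 could be compared in each library, F10 titled Blood and Vsig4 titled Control. Both were called higher, beside 14.9% and 5.16% of all genes. The whole list summed to 52.4 and 44.3 CPM in other macrophages. These genes were thus compared mainly because of their level in the Retnla-expressing cells, and the calls are no support for a difference.

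Other genes of the cells differed between bands of Retnla UMIs among the 58 titled Control. From cells with 4 to 7 Retnla UMIs (10 cells), over 8 to 15 (7 cells) and 16 to 31 (11 cells), to 32 or more (30 cells), Lyz1 was at 0, 70.3, 142 and 819 CPM. In the last band 1 cell held 121 Lyz1 UMIs and another 111, while most had 0, so these sums do not show a rise from cell to cell. Cd226 was at 6.47, 0, 12.9 and 58.0 CPM, Mrc1 at 1398, 1594, 2175 and 1113 CPM, and Ccl6 at 3495, 3798, 3642 and 4725 CPM, none of them in the order of the bands. The median depths of the bands were 17738, 11442, 6024 and 14846 UMIs per cell. Cells of 1 library share their source and the bands use the count that chose them, so this is a description.

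Between libraries, the genes of lowest ratio in the Retnla-expressing macrophages were all at 0 UMIs in the smaller group, titled Blood. Their rank rests on the 5 added to the CPM. Of 3361 genes compared 181 (5.39%) were higher and 399 (11.9%) lower titled Blood, and 146 and 373 without shared barcodes. In other C1q macrophages 5 of 2907 genes (0.172%) were higher and 9 (0.31%) lower. The classes differ in size, with 84715 UMIs of 10 cells titled Blood behind the first counts and 4605 cells titled Blood behind these. Their shares can therefore not be compared. The median log2 ratio over all genes compared was -0.04 in Retnla-expressing and 0.00 in other macrophages. No gene below has a replicate check.

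The 10 lowest genes by this ratio were Lyve1, Top2a, Ccnd2, Mmp19, Mki67, Fgfr1, Cd36, Prmt1, Hist1h2ae and Sh3pxd2b, each with 0 UMIs titled Blood. Against the limit of 3 counts in the group, or 35.4 CPM, Lyve1 was at least 8.21-fold lower titled Blood than titled Control, where it was at 291 CPM in 21 of 58 cells. The DNA topoisomerase gene Top2a was at least 5.78-fold lower, the cyclin gene Ccnd2 at least 4.27-fold, the protease gene Mmp19 at least 3.97-fold, and the fatty acid receptor Cd36 at least 2.79-fold. These limits cover the counting of UMIs only and not which 10 cells were caught. They therefore set no least difference between the macrophages of the libraries. As a share of cells, Lyve1 was in 0 of 10 (up to 30.8%) and 36.2% (23.99% to 49.9%) of 58, intervals that overlap, with median depths of 8867 and 12856 UMIs. In other macrophages Lyve1 was at 0.232 CPM titled Blood and 5.37 CPM titled Control.

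Cell cycle genes were also at few UMIs titled Blood. All 12 cell cycle genes compared were lower titled Blood, against 11.9% of all genes. Their median log2 ratio was -3.03, or -1.65 with the 6 genes of 0 UMIs set at their limit, and -2.31 without shared barcodes. In other macrophages the median was -0.25 over 13 genes. The list holds 24 genes, which summed to 201 CPM titled Blood, with 14 of them at 0 UMIs. At so few UMIs genes were compared almost only on their level titled Control, and those with 0 UMIs on that level alone. The count of 12 and the median are therefore no support for a difference. Cells with at least 3 UMIs of Mki67 and Top2a were 0 of 10, which allows up to 30.8%, and 9 of 58, or 15.5% (7.35% to 27.4%), and in other macrophages 17.6% and 23.0%. A lower share of cycling cells titled Blood was therefore not detectable at 10 cells. Without cycling cells 119 genes were higher and 351 lower.

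The genes of highest ratio often rested on 1 cell. Pf4 was at 7118 CPM titled Blood against 1711 CPM titled Control, a ratio of 4.16 (3.78 to 4.58), but at 1391 against 1585 CPM when the cell with the most UMIs was left out of each group. Slc7a2, an amino acid transporter, had all 11 UMIs titled Blood in 1 cell. Ccl8 was at 8841 against 2527 CPM, and at 3011 against 1988 CPM without those cells. Fabp5, a fatty acid binding protein, was at 1133 CPM (918 to 1384) against 231 CPM (200 to 266), and at 416 against 166 CPM without them. Tnfaip2 was at 437 CPM against 96.5 CPM, in 7 of 10 and 26 of 58 cells, and at 358 against 74.8 CPM without them. Ptgs2, Lta4h, Ly6c2, Sphk2 and Osgep had log2 ratios of 1.79 to 1.98 on 10 to 23 UMIs titled Blood.

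Interferon-stimulated genes had medians below 0 in both kinds of macrophage. Of 20 compared in Retnla-expressing macrophages 0 were higher and 11 lower, against 11.9% of all genes lower, with a median log2 ratio of -1.12, or -0.78 without shared barcodes. In other macrophages 0 of 19 were higher and 5 lower, against 0.31% of all genes lower, with a median of -0.88. Ifi27l2a had 874 CPM (686 to 1097) titled Blood and 2680 CPM (2571 to 2791) titled Control in Retnla-expressing macrophages, and 401 and 836 CPM in other macrophages. Irf7, a transcription factor that amplifies interferon signalling, had 59.0 CPM (19.2 to 138) titled Blood and 251 CPM (219 to 287) titled Control, and 107 and 244 CPM in other macrophages. Of the perivascular list 2 of 18 were higher and 7 lower (median 0.20), of the monocyte-derived list 2 of 13 higher and 2 lower (median 0.49), and of alternative activation 2 of 13 higher and 2 lower (median -0.01). Of all genes 5.39% were higher and 11.9% lower, and 2 of 13 lower is near that share. Mrc1 was at 1877 and 1332 CPM, and at 1415 and 1273 CPM without the cell with the most Mrc1 UMIs of each group. Clec10a was at 307 and 393 CPM, with overlapping intervals.

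Markers of other cells were low with a few exceptions. The 12 T and NK cell genes summed to 23.6 CPM titled Blood and 143 CPM titled Control, against 35.0 and 32.6 CPM in other macrophages, and 68 of the 123 UMIs titled Control came from 1 cell, which held 21 Gzma and 32 Nkg7 UMIs, 778 of Retnla and a shared barcode. Of B cell genes, Ighm, the immunoglobulin mu chain, was at 177 CPM titled Blood and 117 CPM titled Control, against 11.3 and 29.2 CPM in other macrophages, in 2 of 10 and 21 of 58 cells, while Ms4a1 was at 0. Eosinophil genes had 0 and 3 UMIs, with Prg2, Epx and Ear1 at 0, and mast cell and basophil genes 0 and 1. Mesenchymal genes summed to 11.8 and 24.4 CPM, against 53.1 and 74.4 CPM, and neutrophil genes to 82.6 and 24.4 CPM, against 173 and 42.7 CPM. The part of these cells in the results above was not tested.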

How the data were processed

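The authors deposited UMI counts per gene and cell barcode for 2 libraries, for which the submitters' processing notes name Cell Ranger 3.1.0 and the build mm10. Here, cells needed 300 genes, 500 UMIs and no more than 20% of mitochondrial UMIs, which kept 11617 of 12057 titled Blood and 8985 of 9475 titled Control, and the limits on C1q, Retnla, Hmox1 and Cd3 were applied. The Retnla-expressing cells and the gene lists were chosen with earlier results of these data known. For each class of cells in a library the deposited counts were added up and scaled to a common total (CPM), with no test, since each group is 1 library and cells are not replicates. Ratios are log2 of CPM plus 5. Genes were named by rank of the smaller of both libraries' ratios, 12 each way, and between libraries by ratio, 10 each way, with genes of the lists; genes of the rule, predicted, ribosomal, mitochondrial, globin, immunoglobulin and T cell receptor genes were left out of the ranks. Intervals are exact Poisson for counts, exact Clopper-Pearson for shares and conditional binomial for ratios, at 95%; a count of 0 was set at 3 counts. Doublets were left in; Scrublet, run as an alternative, marked 2.38% and 1.80% of cells. Clusters were made with scanpy 1.11.5 and leidenalg 0.10.2 (Leiden, resolution 0.5, 20 components, 15 neighbours). Scripts were checked on simulated counts. Other values of the limits, the pseudocount, the filter, the scaling, depth and doublets were tried. Python 3.11.15, numpy 2.4.6, scipy 1.17.1 and pandas 2.3.3 were used.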

Additional observations from a re-analysis of the deposited data

How the results depend on the processing

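The ratio of the share of Retnla-expressing macrophages, titled Blood over titled Control, stayed between 0.127 and 0.215 under every alternative run, within its interval. Counts of genes past 2-fold moved by over 1.5 times as follows. With a limit of 2 Retnla UMIs, 210 genes were higher and 201 lower than in other macrophages titled Blood, 53 were lower titled Control, 68 were higher and 25 lower in both, and 225 were lower titled Blood than titled Control. With Retnla at 0.05% of UMIs, 140 were lower titled Control. With the mean of each cell's CPM, 695 were lower titled Blood, and 407 were higher and 655 lower titled Blood than titled Control. With a pseudocount of 20 these were 59 lower titled Control and 94 higher between libraries. With a minimum of 10 CPM, 1110 were higher and 1723 lower titled Blood, 338 and 175 titled Control, 188 and 126 in both, and 643 were lower between libraries. Without cycling cells, chosen after seeing the data, 161 were lower titled Control, 112 lower in both and 119 higher between libraries. Without the cell of most UMIs of each gene, also chosen after seeing the data, which by construction lowers the Retnla-expressing cells, 196 were higher and 827 lower titled Blood, 68 and 111 in both, and 47 higher and 667 lower between libraries. That setting turned the log2 ratio of Pf4 to -0.97 titled Blood and -0.19 between libraries. It gave -1.13 for Cd163 titled Blood and -2.18 for Slc7a2 between libraries, but both then had 0 UMIs titled Blood and no direction can be read. Results on single genes and lists were counted once for each alternative. Of these checks 1924 kept their direction and size, 235 moved and 4 changed sign, those of Cd163 and Slc7a2 included. The limit of 2 Retnla UMIs moved the most, 52, with 80 kept. No paired analysis was possible because each group is 1 library. With 84715 UMIs in 10 cells titled Blood, a level of 50 CPM is 4.24 UMIs.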

Other observations

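Cells with at least 4 Retnla UMIs were also found outside the limits on C1q, Hmox1 and Cd3, 15 titled Blood and 19 titled Control. Of these 11 and 13 held less than 0.2% of C1q transcripts, 4 and 5 held at least 0.2% of Hmox1, and 3 and 7 held a Cd3 transcript, with cells counted under each limit they missed. Summed over these cells Mrc1 was at 809 and 906 CPM, Ear2 at 944 and 562 CPM, Lyz1 at 1619 and 534 CPM, H2-Ab1 at 5890 and 5518 CPM, and Ccr2 at 877 and 681 CPM. Clec10a was at 217 and 88.5 CPM, Lyve1 at 0 and 162 CPM, and the dendritic cell gene Flt3 at 0 in both. The Retnla-expressing macrophages described above held 49.3% of the 1435 Retnla UMIs titled Blood and 77.7% of the 11036 titled Control.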
